A study of Mus musculus with 36 samples.

Results

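The genes described here encode the conjugating enzymes of phase II metabolism in mouse liver. They comprise the UDP-glycosyltransferases (Ugt), the soluble glutathione S-transferases (Gst), the microsomal glutathione S-transferases (Mgst) and the cytosolic sulfotransferases (Sult). Members were chosen by symbol alone: every Ugt1, Ugt2 and Ugt3 gene, every Gst gene of the alpha, kappa, mu, omega, pi and theta classes, every Mgst gene and every gene of the Sult1 to Sult5 families, pseudogenes left out. The rule found 60 of the 38283 genes in the deposited table, namely 20 Ugt, 20 Gst, 3 Mgst and 17 Sult genes.

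The mice carried or lacked a truncating allele of Pik3r1, which encodes the regulatory subunit p85alpha of phosphoinositide 3-kinase. Livers came from male mice of the C57Bl/6J background at 16 weeks of age, either wild-type or carrying the Y657* knock-in allele on 1 of the 2 copies of the gene (WT/Y657*). Mice of each genotype were sampled in 3 states: with free access to chow (fed), after 16 h without food (fasted), or given chow again for 6 h after such a fast (refed). Each of the 6 groups held 6 mice, which gave 36 libraries of stranded total RNA. The allele was present in every cell of the WT/Y657* animals from conception, so effects within the liver and effects of the rest of the body cannot be told apart. Mice are named by the ends of their labels, WT for wild-type and MT for WT/Y657*. Their numbers placed the fasted and the refed animals in a lower series (MT_806 to WT_828) and a higher series (WT_896 to MT_923), each with both genotypes, whereas the fed animals (WT_847 to MT_869) belonged to neither. A difference between fed and fasted or refed animals and a difference between these series therefore cannot be told apart. Livers were taken before the overnight fast, after its 16 h, or after the 6 h of refeeding, so the states also differed in time of sampling. Changes with food and changes with time of day cannot be told apart either, and wording such as "with food" names only the state.

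Phase II enzymes attach a polar group to a lipophilic molecule so that it can leave the cell in bile or urine. UGTs transfer glucuronic acid or another sugar from a UDP-sugar, GSTs add glutathione to electrophiles, and SULTs transfer sulfate from the donor PAPS. Hepatocytes make most of these enzymes, many of them in an uneven pattern along the axis from portal to central vein, and their genes answer to nuclear receptors, to NRF2 and to the sex-dependent pattern of growth hormone.

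Library totals ran from 8839488 to 19542775 estimated counts, with a median of 13596665.5. The members took a mean of 1.06% of all counts in fed wild-type livers and at most 1.14% in any of the 6 groups. The labelled tissue and sex were checked on markers: Xist reached at most 7 counts in any library, Ddx3y at least 969, and all 8 hepatocyte markers were expressed, Alb most abundantly. Levels are given in CPM, the counts relative to the scaled library size, and 3 values in a row are the lowest, the median and the highest of the 6 mice in a group. Differences are log2 fold changes with their standard error (SE), each adjusted p is corrected over all 13945 genes tested, and a gene is said to have risen or fallen only where this adjusted p was under 0.05.

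Pik3r1 itself, the altered gene, stood at 119, 132 and 158 CPM in fed wild-type livers and at 115, 133 and 182 CPM in fed WT/Y657* livers. In the fasted state it stood at 82.4, 94.3 and 105.5 CPM in wild-type mice and at 74.5, 99.1 and 112 CPM in WT/Y657* mice. After refeeding the values were 116, 124 and 139 CPM in wild-type and 128, 152 and 166 CPM in WT/Y657* mice. The genotypes overlapped in every state, with differences of 0.04 (adjusted p = 0.886), 0.05 (adjusted p = 0.807) and 0.23 (adjusted p = 0.423) in fed, fasted and refed mice. The counts do not separate the alleles of the gene. Fasting lowered Pik3r1 by -0.53 (wild-type) and -0.52 (WT/Y657*), and refeeding raised it by 0.43 and 0.62.

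Of the 60 members, 44 had enough counts to be tested: 18 Ugt, 18 Gst, 2 Mgst and 6 Sult genes. Per kilobase of exon, the median tested member reached 26.9 CPM, beside 2.93 CPM per kilobase for all 13779 tested genes with a known length. Mgst1, a glutathione transferase and peroxidase of the endoplasmic reticulum and outer mitochondrial membrane, led by far at 1534 CPM per kilobase, which was 31.4% of the sum over the members. Its level was nearly the same in all states, for instance 2712, 2918 and 3300.1 CPM in fed wild-type livers, and it passed the test in none of the 11 comparisons. As means of all 36 mice, the highest soluble transferases were Gstp1 of the pi class (409.7 CPM per kilobase), Gstm1 of the mu class (409.6) and Gsta3 of the alpha class (238). The order of the first 2 changed with state, at 603 and 452 CPM per kilobase in fed and 267 and 385 in fasted wild-type livers. The glucuronidation family was spread more evenly, with Ugt2b5 (398 CPM per kilobase), Ugt2b36 (294) and Ugt2b1 (189), enzymes of steroid conjugation, having the highest means of all 36 mice. Ugt1a1, the enzyme that conjugates bilirubin, had a mean of 175 CPM per kilobase and exceeded Ugt2b1 in fasted (255 and 172) and refed (201 and 120) wild-type livers. Sulfation was the smallest branch: its tested genes summed to 195 CPM per kilobase, beside 1722 for Ugt, 1545 for Mgst and 1424 for Gst. Within it, Sult1a1, which sulfates phenols, took 73.3% of the level of the whole family, its untested genes included, ahead of Sult1d1 (39.0 CPM per kilobase), an enzyme acting on catecholamines, and Sult1b1 (7.60), which acts on thyroid hormones. The plot of levels per length sets out all 44 tested members.

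**Figure D1:**
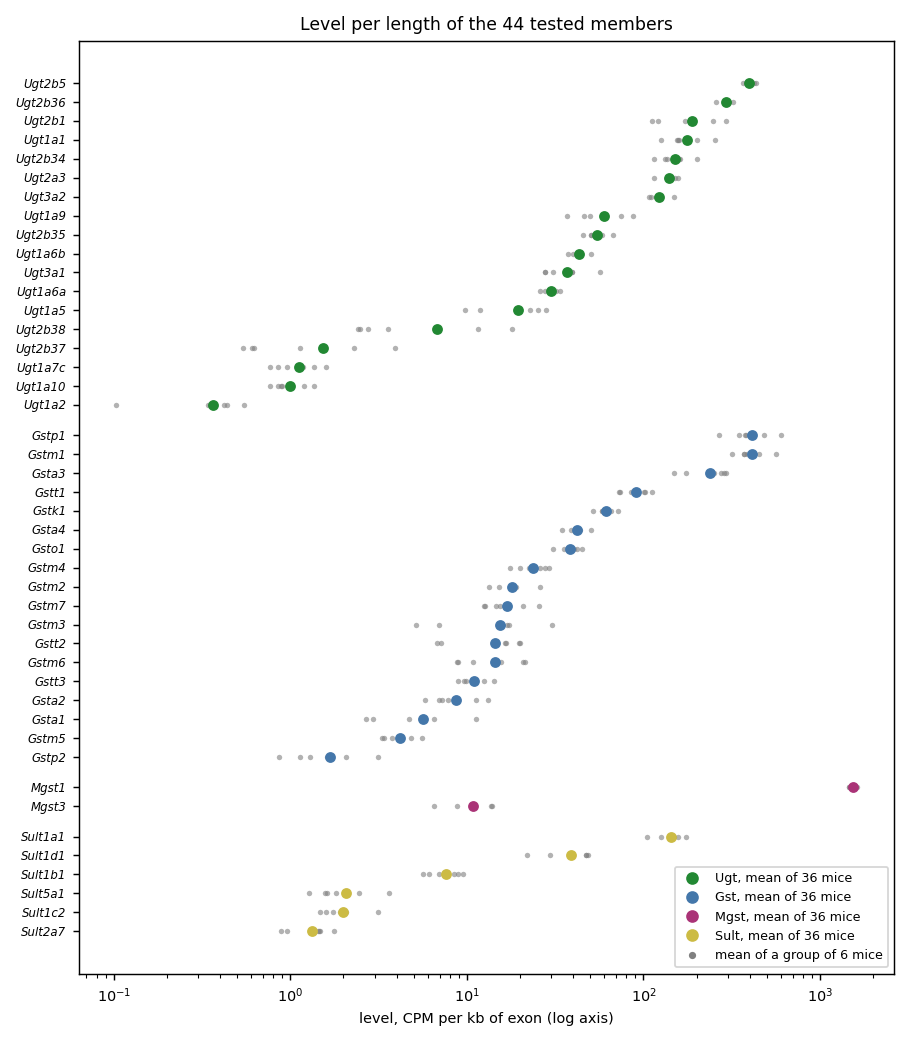
Level of each of the 44 tested members in CPM per kilobase of exon on a log axis, the large dot being the mean of 36 mice and the small grey dots the means of the 6 groups. Mgst1 lies highest at 1534 CPM per kilobase, and the group means of most members lie close together beside the range between members.

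The other 16 members were too low to test. Among them 5 had no count in any library: Gstt4, Sult1c1, Sult2a4, Sult2a5 and Sult2a6. The remaining 11 were Gsto2, Mgst2, Sult1e1, Sult2a1, Sult2a2, Sult2a3, Sult2b1, Sult3a1, Sult4a1, Ugt1a8 and Ugt2a1, the highest of them Sult1e1, an estrogen sulfotransferase, with a mean of 0.144 CPM per kilobase. Mgst2, the third microsomal transferase, reached 174 counts over all 36 libraries together. Several of these, the Sult2a genes and Sult3a1 above all, are known as genes of female mouse liver, and the low counts here came from male animals. The counts of called members given for each comparison describe the 44 tested members and not all 60.

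The members sit in clusters, on the genome build GRCm38. The Ugt1a genes share a locus on chromosome 1, where each has a first exon of its own joined to common downstream exons. The Ugt2a and Ugt2b genes lie on chromosome 5 together with Sult1b1, Sult1d1 and Sult1e1. Ugt3a1 and Ugt3a2 lie side by side on chromosome 15, the Gstm genes on chromosome 3, the Gstt genes on chromosome 10, Gstp1 and Gstp2 on chromosome 19, and Gsta1, Gsta2 and Gsta4 on chromosome 9 apart from Gsta3 on chromosome 1. Reads from such neighbours may be hard to assign, so the split between Ugt1a genes, between Gsta1 and Gsta2, among Gstm genes, between Gstp1 and Gstp2 and between Ugt2b37 and Ugt2b38 may be less certain than the sum of each cluster. The estimated counts of Ugt1a1, Ugt1a5, Ugt1a6a, Ugt1a6b, Ugt1a7c and Ugt1a9 were not whole in 36 libraries each. For Gstm6 that number was 8, and for Gsta1, Gsta2, Gstp1, Gstp2, Ugt2b37 and Ugt2b38 it was 0. The calls of Ugt1a1, Ugt1a6a and Ugt1a6b below thus rest on estimates that were not whole. Whole values do not show that reads were assigned rightly.

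In the fasted state, WT/Y657* livers had less mRNA of 4 Ugt and 2 Gst genes than wild-type livers by edgeR's quasi-likelihood test, which called no member higher. The likelihood ratio test and DESeq2 each called Gstm3 and Ugt1a9 higher, and limma-voom Gstp1 and Ugt1a9, where Ugt1a9 was chosen for mention after its values were seen. For Gstm3, mouse MT_827 stood far above its group at 96.8 CPM, and 7 of 46 other fits called the gene. The 6 genes were Ugt1a1, Ugt1a6a, Ugt1a6b, Ugt3a2, Gstt1 and Gstm6, which is 6 of 44 tested members beside 13.1% of all genes called in the same comparison. The share is close to that background, and the median member differed by -0.08 beside 0.00 for all genes. At an unadjusted p under 0.05 there were 15 members, beside 3805 of all 13945 genes. In bulk tissue, fewer cells of a type and less RNA per cell cannot be told apart.

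Ugt1a1 showed the widest gap of the 6. It stood at 481, 576 and 617 CPM in fasted wild-type livers and at 207, 369 and 484 CPM in fasted WT/Y657* livers. Mouse MT_921 apart, the WT/Y657* mice were all under the wild-type range, and mice MT_806 (207 CPM) and MT_827 (209 CPM) lay far below the rest. The difference was -0.71 (SE 0.17, adjusted p = 0.00418), with -1.03 in the lower and -0.54 in the higher series of 3 against 3 mice each. Ugt1a6b, an enzyme for small planar phenols, stood at 109, 122 and 131 CPM in wild-type and at 73.1, 100.4 and 114 CPM in WT/Y657* mice. Here again 5 of 6 WT/Y657* mice lay below all wild-type mice, with a difference of -0.36 (SE 0.09, adjusted p = 0.00727). Its close relative Ugt1a6a stood at 126, 148 and 157 CPM against 91.1, 124.5 and 139.8 CPM. Only 3 WT/Y657* mice were under the wild-type range, and the difference of -0.29 (SE 0.10, adjusted p = 0.0478) sat at the edge of the threshold: without mouse MT_806 it was -0.24 (adjusted p = 0.147), and it was lost in 19 of 36 fits that each left out 1 mouse and in 4 of 9 other settings.

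Ugt3a2, an enzyme that transfers sugars other than glucuronic acid, stood at 446, 458 and 497 CPM in fasted wild-type and at 301, 387 and 480.2 CPM in fasted WT/Y657* livers. The wild-type mice were tightly grouped, and 5 of 6 WT/Y657* mice lay under them. The difference was -0.27 (SE 0.09, adjusted p = 0.0431), and without mouse MT_827 it was -0.21 (adjusted p = 0.133), with the call lost in 10 of 36 such fits and in 3 of 10 other settings. Ugt3a1, not called by the quasi-likelihood test but called in 9 of 46 other fits, differed by -0.52 (adjusted p = 0.0532).

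The 2 Gst genes belong to different classes. Gstt1, a theta-class enzyme that acts on small halogenated compounds, stood at 103, 181 and 226 CPM in fasted wild-type and at 68.3, 120.1 and 133 CPM in fasted WT/Y657* livers. The groups overlapped widely because wild-type mouse WT_807 was low, and mouse MT_806 alone lay below every wild-type animal. The difference was -0.59 (SE 0.15, adjusted p = 0.00903), with the call lost when only the groups compared were fitted. Gstm6, of the mu class, stood at 21.8, 33.2 and 37.9 CPM against 17.3, 20.8 and 27.4 CPM. Wild-type mice WT_807 and WT_920 reached down to the WT/Y657* range, yet 5 of 6 WT/Y657* mice were under all wild-type mice, and the difference was -0.54 (SE 0.15, adjusted p = 0.0135). In both series all 6 genes were lower in WT/Y657* mice, by -0.44 to -1.03 in the lower and by -0.13 to -0.54 in the higher series, which their choice from these same mice favours. The plot of these genes by mouse shows the spread.

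**Figure D2:**
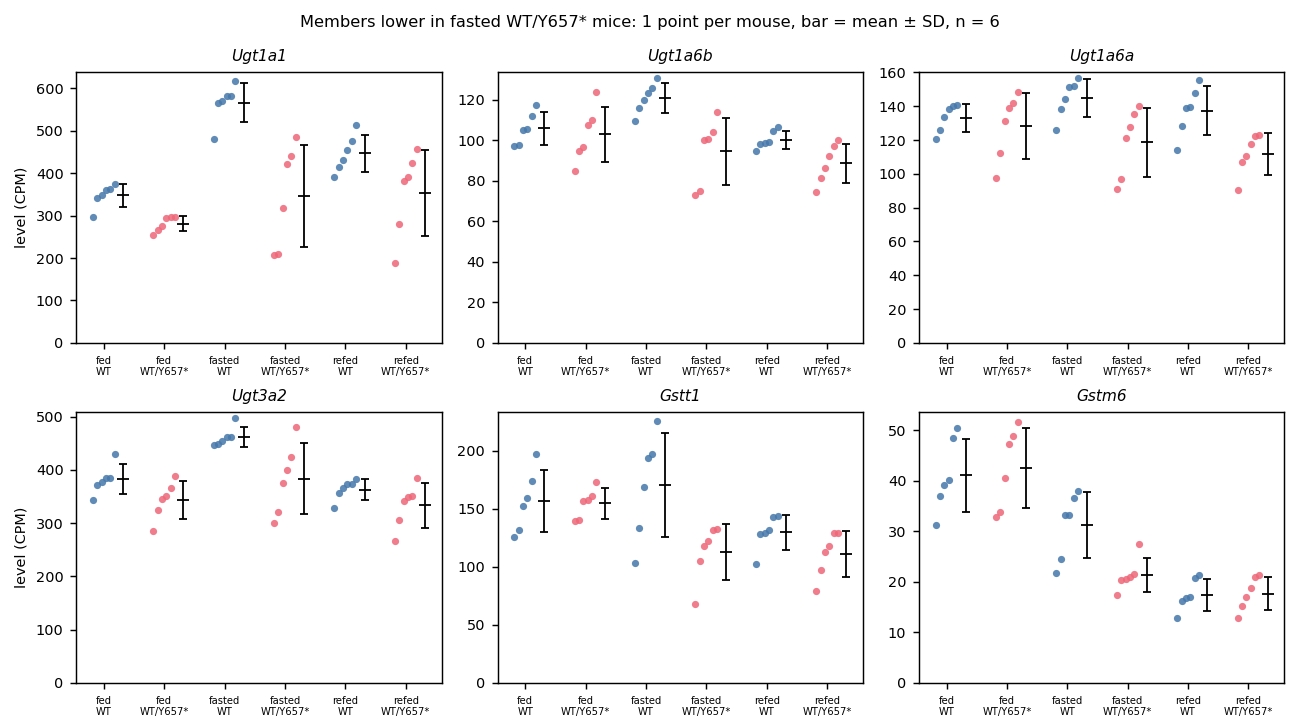
CPM of Ugt1a1, Ugt1a6b, Ugt1a6a, Ugt3a2, Gstt1 and Gstm6 in each mouse of the 6 groups, with mean ± SD (n = 6 per group). The fasted WT/Y657* mice lie lower than the fasted wild-type mice for each gene, and the groups overlap for each.

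Most of the listed markers of pericentral hepatocytes were also lower in fasted WT/Y657* livers, in a comparison that called 13.1% of all genes. Of the 8 markers, all tested and none without counts, 6 were lower in fasted WT/Y657* livers (Axin2 -0.76, Lgr5 -0.90, Cyp2e1 -0.79, Glul -0.77, Oat -0.71 and Cyp1a2 -0.76), with a median of -0.76. Their summed level, most of it Cyp2e1, ran from 10817 to 13807 CPM in fasted wild-type mice. In the fasted WT/Y657* mice it was 2788 in mouse MT_827, 4322 in MT_806, 7079 in MT_922, 8447 in MT_923, 9246 in MT_921 and 10539 CPM in MT_826. The mice lowest for Ugt1a1, MT_806 and MT_827, were thus also the lowest for the pericentral sum. In refed mice the sum was 8698 to 10931 CPM in wild-type and 3861 (mouse MT_898) to 7868 CPM in WT/Y657* animals. These refed ranges did not overlap, although no member was called between the refed genotypes. In fed mice the sum was 6026 to 7490 CPM in wild-type and 4298 to 6217 CPM in WT/Y657* animals. The part of pericentral markers in the lower Ugt and Gst levels was not tested.

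The Ugt1a locus can also be read as a whole, since its genes share exons. The 9 Ugt1a genes summed to 898.8, 1029 and 1066 CPM in fasted wild-type and to 633, 758 and 962 CPM in fasted WT/Y657* livers. As a single unit, counted this way after the data had been seen, the locus was lower by -0.38 (SE 0.11, adjusted p = 0.0168) in fasted WT/Y657* mice. In fed mice the sum was 613, 748 and 780.3 CPM in wild-type and 673, 706.6 and 737 CPM in WT/Y657* animals, a difference of -0.04 (adjusted p = 0.883). Fasting raised the sum in wild-type mice by 0.46 (adjusted p = 0.00105), whereas the value in WT/Y657* mice was 0.12 (adjusted p = 0.407). The difference between these responses did not pass the test (-0.33, adjusted p = 0.214).

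Within the locus, Ugt1a1 made up a mean of 47.7% of the Ugt1a sum in fed wild-type and 39.7% in fed WT/Y657* livers, 56.6% and 43.8% in fasted livers, and 53.9% and 45.0% in refed livers. Ugt1a9 went the other way with 11.1% and 18.9% in fed, 10.2% and 22.5% in fasted, and 13.1% and 24.5% in refed livers. By the quasi-likelihood test, Ugt1a9 itself was not called between genotypes in any state: the differences were 0.73 (adjusted p = 0.12), 0.70 (adjusted p = 0.0679) and 0.79 (adjusted p = 0.295). In fasted mice the likelihood ratio test, DESeq2, limma-voom and the fit with the series covariate did call it, higher in WT/Y657* livers. The shares were not tested.

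**Figure D3:**
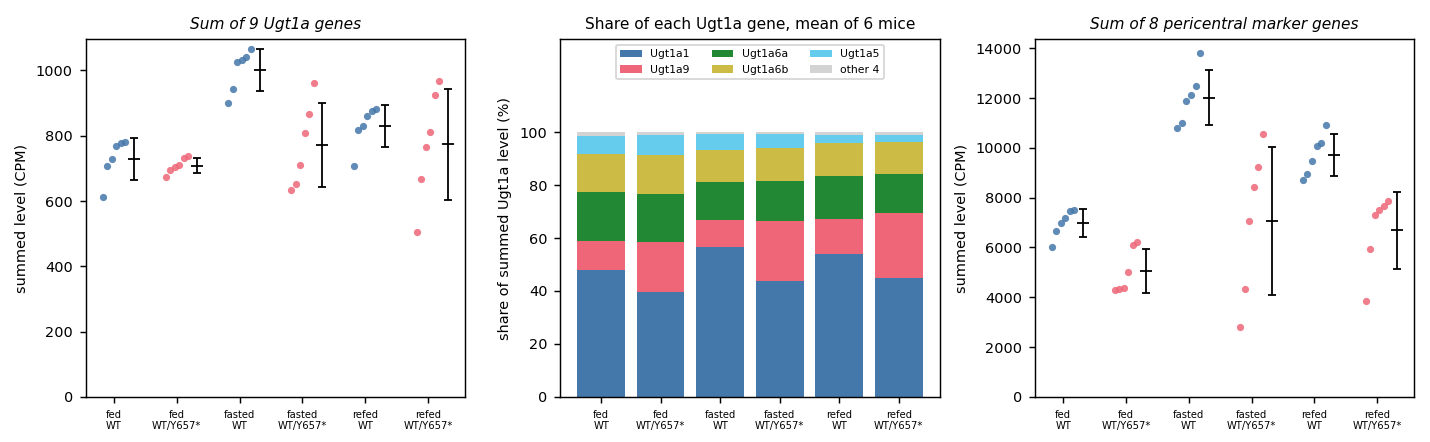
Sum of the 9 Ugt1a genes in CPM by mouse and group, the share of each Ugt1a gene in that sum, and the sum of the 8 pericentral markers in CPM. Fasted WT/Y657* mice MT_806 and MT_827 are low in both sums, and Ugt1a1 holds a smaller share in WT/Y657* than in wild-type livers of each state.

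Ugt1a1 is shown with the 300 bases around its start as an example of a liver promoter in this locus. It had the widest gap of the 6 genes called lower in fasted WT/Y657* mice. The sequence covers chr1:88211709-88212008 on the plus strand of GRCm38.p6 (RefSeq). The capitals mark ATTAAC, the reverse complement of GTTAAT, a half-site known from HNF1.
Ugt1a1: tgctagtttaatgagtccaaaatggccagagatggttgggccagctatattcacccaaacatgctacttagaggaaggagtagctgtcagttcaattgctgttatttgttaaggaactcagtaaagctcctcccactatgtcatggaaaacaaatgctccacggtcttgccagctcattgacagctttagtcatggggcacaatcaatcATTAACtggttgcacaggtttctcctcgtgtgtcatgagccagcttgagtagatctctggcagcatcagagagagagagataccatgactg
Searched on both strands, GTTAAT was found in 7.10% of 32851 promoters of this length, and in 9 of the 39 tested members with a promoter in the table. A match is a description, not a site or a cause.

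In the fed state, Sult1c2 passed the quasi-likelihood test, higher in WT/Y657* livers: 1 of 44 members, beside 2.37% of all genes. The count was 0 to 5 in the other settings and reached 6 without mouse MT_858. The sulfotransferase was scarce, at 2.05, 3.51 and 4.11 CPM in wild-type and at 3.50, 5.30 and 8.57 CPM in WT/Y657* mice. All WT/Y657* mice but mouse MT_858 exceeded every wild-type mouse. The difference was 0.86 (SE 0.22, adjusted p = 0.0279), with 0.57 among mice WT_856 to WT_860 (3 against 2) and 1.11 among the others (3 against 4). This call ended when any of wild-type mice WT_847, WT_849 and WT_856 or WT/Y657* mice MT_866, MT_868 and MT_869 was left out, for example at 0.77 (adjusted p = 0.0953) without mouse MT_866. At an unadjusted p under 0.05 there were 13 members, beside 2423 of all 13945 genes, and the median member differed by 0.06 beside 0.01 for all genes.

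By the same test, the fasting response differed between genotypes for Sult1c2 as well, 1 of 44 members beside 4.35% of all genes. Other settings called up to 3 members, and 5 were called without mouse WT_807. In the fasted state Sult1c2 stood at 2.69, 4.01 and 4.77 CPM in wild-type and at 1.89, 2.63 and 3.42 CPM in WT/Y657* livers. The genotype order of the medians was thus opposite in fed and fasted animals. Fasting lowered Sult1c2 by -1.10 (SE 0.22, adjusted p = 1.7e-04) in WT/Y657* mice, with no overlap of the groups, whereas the change of 0.23 (adjusted p = 0.462) in wild-type mice did not pass. The difference between the responses was -1.33 (SE 0.32, adjusted p = 0.0114). After refeeding, the values were 1.96, 2.88 and 3.93 CPM in wild-type and 2.58, 3.43 and 5.33 CPM in WT/Y657* mice, and the genotypes overlapped. In the fasting response 13 members had an unadjusted p under 0.05 for the genotype difference, 9 of them Gst genes, beside 2665 of all 13945 genes, and the median over the members was -0.20 beside -0.01 for all genes.

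Some fed WT/Y657* mice differed from their group. Gsta1 and Gsta2, alpha-class enzymes that detoxify products of lipid peroxidation, were chosen for mention after their values were seen. Gsta1 stood at 0.84, 2.70 and 4.09 CPM in fed wild-type and at 1.61, 6.67 and 25.7 CPM in fed WT/Y657* mice, and Gsta2 at 1.88, 7.79 and 10.3 against 6.45, 11.6 and 30.3 CPM. The high values came from mice MT_866, MT_868 and MT_869, at 9.48, 25.7 and 19.98 CPM for Gsta1 and 13.8, 25.9 and 30.3 CPM for Gsta2. With differences of 2.07 (adjusted p = 0.0648) and 1.19 (adjusted p = 0.0787), neither gene was called by the quasi-likelihood test, whereas the likelihood ratio test, DESeq2 and library size alone called both higher. The same mice were the lowest of their group for Ugt2b38 (4.11, 13.8 and 12.99 CPM) and for the pericentral sum (4298, 4336 and 4368 CPM). Their numbers lie above those of every fed wild-type mouse (WT_847 to WT_860), so number and genotype cannot be told apart among them. Ugt1a1 did not overlap between the fed genotypes, lowest 297.7 CPM in wild-type and highest 297.6 CPM in WT/Y657* mice, yet its difference of -0.31 (adjusted p = 0.333) was not called.

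Genes that mark female and male mouse liver also varied among fed mice. Of 11 female-predominant genes found, 6 were tested, and A1bg, Cyp2c40, Cyp2a4 and Cyp2c69 were higher in fed WT/Y657* livers. The list, none of it without counts over all libraries, summed to 3.70, 5.04 and 7.995 CPM in wild-type and to 10.7, 16.3 and 292 CPM in WT/Y657* mice. The highest value was mouse MT_866, where Cyp2a4, the most abundant of the list, reached 162 CPM, and the other 5 lay between 10.7 and 23.2 CPM. The 9 male-predominant genes, with Mup3 the most abundant, held no called gene in fed mice, yet their sum was lowest in mouse MT_866 at 6542 CPM beside 11843 to 19013 CPM in the other WT/Y657* mice and 14129 to 17840 CPM in wild-type mice. The part of this pattern in the Sult, Gst and Ugt values of fed mice was not tested.

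After 6 h of refeeding, no member differed between genotypes (0 of 44, beside 0.0287% of all genes, which is 4 genes). With edgeR's quasi-likelihood test, 6 members had an unadjusted p under 0.05, beside 1329 of all 13945 genes. The likelihood ratio test of edgeR, DESeq2 and limma-voom also called 0. The median member differed by -0.11 beside 0.01 for all genes. Mouse MT_898 was the lowest refed WT/Y657* animal for Ugt1a1 (188 CPM), Ugt3a1 (43.4 CPM) and the summed Ugt family (2602 CPM), as well as for the pericentral sum. No difference in the refeeding response was called either (0 of 44 by the same 4 tests, beside 2.06% of all genes). In edgeR's quasi-likelihood test 5 members were at an unadjusted p under 0.05, beside 2163 of all 13945 genes.

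Comparisons of feeding states called between 6 and 18 of the 44 members. Fasting wild-type mice raised 7 and lowered 11 of 44 members, beside 32% of all genes called. In WT/Y657* mice fasting raised 3 and lowered 13, beside 32.9% of all genes, and with library size alone it raised 1 and lowered 14. Of 18 soluble Gst genes, 3 rose and 7 fell in wild-type mice, where 2028 rose and 2436 fell of all genes, and 11 of the 18 values lay below 0. In the WT/Y657* groups 2 rose and 7 fell, beside 2119 and 2472 of all genes, and 15 of the 18 values lay below 0. The summed Gst level ran from 3250.2 to 3873 CPM in fed and from 2002 to 2680.4 CPM in fasted wild-type livers. The map of fold changes shows all members and comparisons, several of which share a control group.

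**Figure D4:**
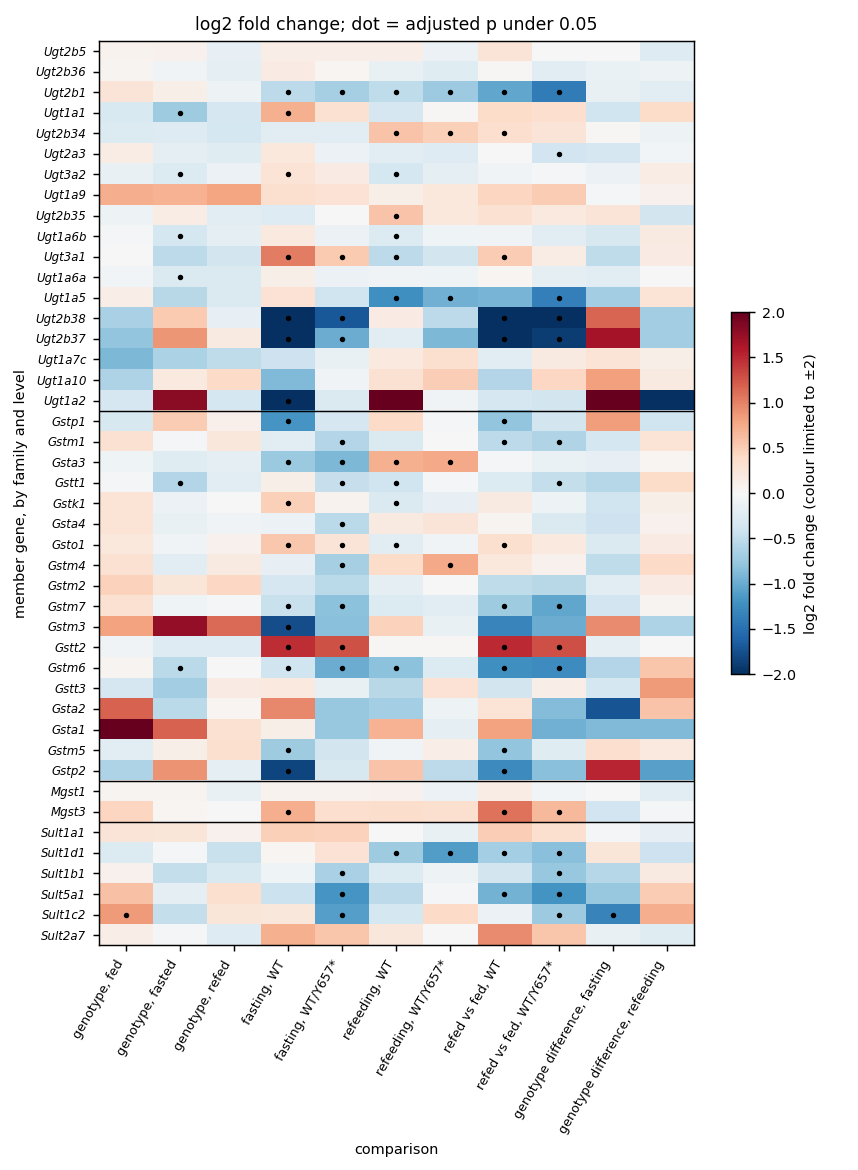
Log2 fold change of each of the 44 tested members in the 11 comparisons, colour limited to ±2, with a dot where the adjusted p was under 0.05. Genotype columns hold few dots (1 in fed, 6 in fasted and 0 in refed mice), and the columns of feeding states hold between 6 and 18.

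Among the glucuronidating enzymes, the steepest responses to fasting were those of Ugt2b37 and Ugt2b38, a closely related pair in the cluster on chromosome 5. Ugt2b38 stood at 20.3, 34.5 and 44.003 CPM in fed wild-type livers, at 1.63, 4.27 and 9.26 CPM after fasting and at 2.58, 4.53 and 9.46 CPM after refeeding. Every fasted or refed wild-type mouse lay below every fed one. The fall on fasting was -2.86 (SE 0.49, adjusted p = 3.1e-05), and 6 h of food did not bring the gene back (0.16, adjusted p = 0.848). Ugt2b37 stood at 5.45, 6.20 and 14.5 CPM in fed and at 0.50, 0.89 and 2.74 CPM in fasted wild-type livers, a fall of -2.65 (SE 0.41, adjusted p = 4.5e-06) without overlap. In WT/Y657* mice the fed values of Ugt2b38 were wide, at 4.11, 17.6 and 42.1 CPM, and fasting brought them to 3.09, 6.65 and 10.5 CPM (-1.69, SE 0.47, adjusted p = 0.00587). For Ugt2b37 the change in WT/Y657* mice was -0.99 (SE 0.39, adjusted p = 0.0480), which was -0.58 (adjusted p = 0.252) without mouse MT_857, and the call was lost in 23 of 36 fits that left out 1 mouse. The responses of the genotypes did not differ past the threshold, at 1.16 (adjusted p = 0.350) for Ugt2b38 and 1.67 (adjusted p = 0.0845) for Ugt2b37, the latter being called in 4 of 45 other fits.

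Both promoters hold the letters GTAAACA, a motif known from forkhead factors, and they are shown because the pair moved together. The sequences run 5' to 3' on the minus strand of GRCm38.p6 (RefSeq), at chr5:87254739-87255038 for Ugt2b37 and chr5:87424154-87424453 for Ugt2b38. Capitals mark the motif as read on the strand shown.
Ugt2b37: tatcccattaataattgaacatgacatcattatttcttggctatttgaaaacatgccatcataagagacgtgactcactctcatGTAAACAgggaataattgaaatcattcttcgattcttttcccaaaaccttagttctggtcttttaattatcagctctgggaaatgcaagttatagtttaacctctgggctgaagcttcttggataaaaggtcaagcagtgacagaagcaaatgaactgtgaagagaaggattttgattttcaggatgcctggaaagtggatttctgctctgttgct
Ugt2b38: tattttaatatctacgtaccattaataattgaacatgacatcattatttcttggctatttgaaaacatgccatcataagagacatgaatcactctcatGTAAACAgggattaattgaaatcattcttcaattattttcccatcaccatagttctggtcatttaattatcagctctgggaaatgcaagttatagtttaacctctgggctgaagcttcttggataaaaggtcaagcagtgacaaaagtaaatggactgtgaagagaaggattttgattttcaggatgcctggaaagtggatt
Over 286 aligned bases, 273 were identical (95.5%) between these windows; how alike the transcripts are was not tested. On either strand, GTAAACA occurred in 3.65% of all promoters and in 5 of the 39 tested members with a promoter: Sult1d1, Ugt1a2, Ugt2b35, Ugt2b37 and Ugt2b38. In all, 13 motifs were searched, and the motifs and promoters shown were chosen after the sequences had been seen. The part of any of them in the response was not tested.

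Ugt3a1, which uses N-acetylglucosamine as its sugar, rose on fasting. In wild-type livers it stood at 53.4, 74.7 and 90.9 CPM in the fed, 131, 152 and 167 CPM in the fasted and 88.3, 104 and 122 CPM in the refed state. Neither fed nor refed mice reached the fasted range. The rise was 1.03 (SE 0.18, adjusted p = 5.0e-05) and the fall on refeeding -0.52 (adjusted p = 0.0278). Among WT/Y657* mice it rose by 0.52 (SE 0.18, adjusted p = 0.0287), which was 0.40 (adjusted p = 0.100) without mouse MT_921. The call was lost in 5 of 36 fits that left out 1 mouse, and the responses did not differ past the threshold (-0.51, adjusted p = 0.277). Ugt1a1 rose by 0.71 (SE 0.17, adjusted p = 0.00122) in wild-type mice, from 298, 354 and 374 CPM without overlap. For WT/Y657* mice the value was 0.30 (adjusted p = 0.166), and the difference between the responses, -0.40 (adjusted p = 0.357), was not called. Ugt3a2 rose by 0.27 (SE 0.09, adjusted p = 0.0185) in wild-type mice and fell again by -0.35 with food. In WT/Y657* mice neither change of Ugt3a2 was called, and the responses did not differ past the threshold. Ugt1a2, a very low gene with a median of 1.17 CPM in fed wild-type mice, fell by -2.43 (SE 0.83, adjusted p = 0.0238), a call that ended without mouse WT_824, WT_850 or WT_919 (-2.02, adjusted p = 0.0779 without mouse WT_850).

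Ugt2b1 stepped down at each stage. In wild-type livers it stood at 537, 628 and 768 CPM in the fed, 356, 418 and 582 CPM in the fasted and 215, 319 and 381 CPM in the refed state. Fed and refed mice did not overlap, and the fasted mice lay between them and reached into both ranges. Fasting lowered it by -0.52 (adjusted p = 0.0203) and refeeding by a further -0.51 (adjusted p = 0.0233) in wild-type mice, and by -0.66 and -0.73 in WT/Y657* mice. From fed to refed the fall was -1.03 in wild-type animals and -1.39 in WT/Y657* mice. Ugt2b34 and Ugt2b35 instead rose with food. Ugt2b34 went from 548, 569 and 649.7 CPM in fasted to 784, 861 and 1022 CPM in refed wild-type mice without overlap (0.57, SE 0.12, adjusted p = 2.6e-04), and rose by 0.47 in WT/Y657* mice. Ugt2b35 rose by 0.57 in wild-type mice, where its change of 0.21 (adjusted p = 0.253) in WT/Y657* mice was not called and the responses did not differ past the threshold (-0.36, adjusted p = 0.361). Ugt1a5 fell with food by -1.23 (SE 0.37, adjusted p = 0.0110) in wild-type animals and by -0.95 (adjusted p = 0.0482) in WT/Y657* mice, the second call being lost in 20 of 36 fits that left out 1 mouse, most of all without MT_921 (-0.78, adjusted p = 0.127).

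Gsta3, the main alpha-class transferase here, swung down and back. In wild-type livers it stood at 1136, 1273 and 1436 CPM in the fed, 521, 803 and 960.4 CPM in the fasted and 1081, 1228 and 1421 CPM in the refed state. Fasted mice lay below all fed and refed mice, which overlapped each other. The fall was -0.74 (SE 0.14, adjusted p = 6.9e-05) and the rise 0.71 (SE 0.14, adjusted p = 1.4e-04). In WT/Y657* mice the values were -0.90 (adjusted p = 3.7e-06) and 0.76 (adjusted p = 5.4e-05), with no difference past the threshold in either response (-0.16, adjusted p = 0.707, and 0.05, adjusted p = 0.947).

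Gstt2, a theta-class enzyme, made the largest rise of the members on fasting in both genotypes and stayed up after food. It stood at 17.4, 30.9 and 37.7 CPM in fed, 58.7, 83.7 and 101.3 CPM in fasted and 72.3, 80.0 and 105 CPM in refed wild-type livers. In WT/Y657* livers the values were 18.8, 29.3 and 37.5, then 39.1, 68.6 and 87.8, then 47.0, 72.0 and 79.2 CPM. No fasted or refed mouse of either genotype came down to the fed range. The rise on fasting was 1.47 (SE 0.19, adjusted p = 4.1e-07) in wild-type and 1.28 (SE 0.19, adjusted p = 4.4e-06) in WT/Y657* mice, and from fed to refed it was 1.49 and 1.30.

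The pi class fell on fasting in wild-type livers. Gstp1 stood at 663, 979 and 1087 CPM in the fed and at 165, 408 and 593 CPM in the fasted state, with no overlap and the lowest value in mouse WT_825. The fall was -1.17 (SE 0.21, adjusted p = 6.1e-05), and that of the far scarcer Gstp2 was -1.84 (SE 0.37, adjusted p = 1.8e-04). When the mice carried the allele, Gstp1 stood at 345, 798 and 1006 CPM in the fed and 439, 591 and 707.4 CPM in the fasted state, which overlapped because mice MT_866 and MT_868 were low when fed. There the changes were -0.34 (adjusted p = 0.224) for Gstp1 and -0.32 (adjusted p = 0.522) for Gstp2. The genotype difference in the response was 0.83 (adjusted p = 0.109) and 1.52 (adjusted p = 0.0818), neither past the threshold.

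Gsto1 of the omega class, which acts as a thioltransferase and reduces dehydroascorbate, and Gstk1 of the kappa class, found in mitochondria and peroxisomes, rose on fasting in wild-type mice. Gsto1 went from 55.3, 62.0 and 69.0 CPM to 86.0, 89.2 and 97.6 CPM (0.54, SE 0.08, adjusted p = 2.3e-06), and in WT/Y657* mice it rose by 0.26 (adjusted p = 0.0145). Gstk1 went from 64.6, 77.3 and 84.9 CPM to 89.9, 105 and 119 CPM (0.47, SE 0.09, adjusted p = 1.3e-04), while its change in WT/Y657* mice was 0.07 (adjusted p = 0.582). Fed and fasted wild-type mice did not overlap for either gene. Between the genotypes these responses differed by -0.29 (adjusted p = 0.156) and -0.40 (adjusted p = 0.0732), neither called, although the difference for Gstk1 was called in 4 of 46 other fits. Mgst3, a microsomal enzyme able to make leukotriene C4, rose by 0.72 (SE 0.20, adjusted p = 0.00540) in fasted wild-type mice and by 1.08 from the fed to the refed state, where the groups did not overlap. In WT/Y657* mice its change of 0.34 on fasting was not called, and the fasting responses did not differ past the threshold.

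Gstm6 stood at 31.2, 39.6 and 50.4 CPM in fed, 21.8, 33.2 and 37.9 CPM in fasted and 12.8, 16.9 and 21.3 CPM in refed wild-type mice. Refed mice lay below all fasted mice, so the gene went on falling with food. The steps were -0.40 (adjusted p = 0.0339) and -0.83 (adjusted p = 5.7e-05) in wild-type mice. The call of the first ended without mouse WT_807, WT_856, WT_860 or WT_920 (-0.31, adjusted p = 0.102 without mouse WT_807). With the allele, the first step was -0.99 (SE 0.15, adjusted p = 2.4e-06) and the second -0.27 (adjusted p = 0.173). Neither step differed between genotypes past the threshold (-0.59, adjusted p = 0.0950, and 0.55, adjusted p = 0.175), although without mouse WT_807 the first difference was called. Gstm7 fell on fasting by -0.44 (SE 0.14, adjusted p = 0.0116) in wild-type and by -0.83 (SE 0.13, adjusted p = 9.0e-06) in WT/Y657* mice, a difference of -0.39 (adjusted p = 0.257) that was not called. Gstm4 rose with food by 0.75 (SE 0.17, adjusted p = 7.6e-04) in WT/Y657* mice, beside 0.37 (adjusted p = 0.0916) in wild-type mice, and the difference of 0.38 (adjusted p = 0.469) was not called. Gstm3 fell by -1.78 (SE 0.61, adjusted p = 0.0256) in fasted wild-type mice, from 15.7, 21.97 and 33.5 to 3.23, 6.85 and 11.9 CPM without overlap, a call that ended without mouse WT_807, WT_860 or WT_920 (-1.63, adjusted p = 0.0582 without mouse WT_920). In fasted WT/Y657* mice Gstm3 stood at 4.66, 8.12 and 96.8 CPM, the last in mouse MT_827.

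**Figure D5:**
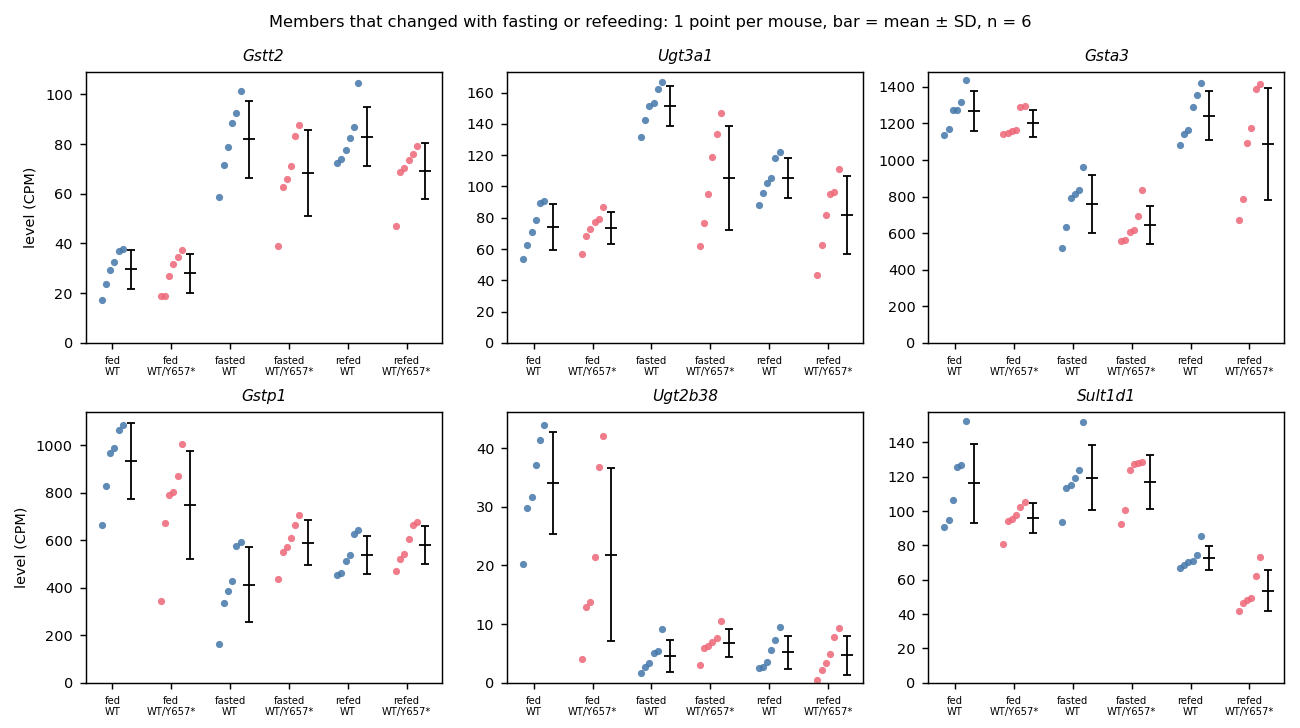
CPM of Gstt2, Ugt3a1, Gsta3, Gstp1, Ugt2b38 and Sult1d1 in each mouse of the 6 groups, with mean ± SD (n = 6 per group). Gstt2 stays up and Ugt2b38 stays down after 6 h of food, Gsta3 returns, and Sult1d1 falls with refeeding.

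No Sult gene passed the test in the fasting response of wild-type mice, where 32% of all genes were called. There edgeR gave 1 of 6 an unadjusted p under 0.05, beside 5724 of all 13945 genes. In WT/Y657* mice 3 of 6 fell, beside 2472 of all 13945 genes. They were Sult1c2, as described, Sult5a1 by -1.18 (SE 0.25, adjusted p = 3.2e-04) and Sult1b1 by -0.65 (SE 0.23, adjusted p = 0.0305). Sult5a1 went from 10.1, 16.6 and 22.1 CPM to 5.06, 7.17 and 9.99 CPM without overlap. Sult1b1 went from 20.99, 25.9 and 32.2 CPM to 6.499, 18.1 and 25.2 CPM. Its call ended without mouse MT_806, MT_827, MT_857 or MT_859 (-0.48, adjusted p = 0.0831 without mouse MT_806). These falls did not differ from the wild-type values of -0.42 and -0.09 past the threshold (-0.76, adjusted p = 0.224, and -0.57, adjusted p = 0.356).

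Sult1d1 fell when food returned. In wild-type mice it stood at 90.6, 116 and 152 CPM in the fed, 93.5, 117 and 152 CPM in the fasted and 66.6, 70.5 and 85.7 CPM in the refed state. In WT/Y657* mice the fed values were 80.7, 96.7 and 105 CPM, the fasted values 92.7, 126 and 128.5 CPM and the refed values 41.7, 48.8 and 73.5 CPM. Every refed mouse lay below all fed and fasted mice of its genotype. The fall was -0.72 (SE 0.12, adjusted p = 2.9e-05) in wild-type and -1.12 (SE 0.13, adjusted p = 1.2e-08) in WT/Y657* mice, with a difference of -0.41 (adjusted p = 0.240) between them.

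Counted over the families, refeeding raised 3 and lowered 10 of 44 members in wild-type mice, beside 30.2% of all genes, and raised 3 and lowered 3 in WT/Y657* mice, beside 31.3%. In wild-type mice the split depended on the setting, at 5 raised and 5 lowered with library size alone and 4 and 6 without a filter. The difference in these counts is not a test, and 0 members differed in the refeeding response as given above. Without WT/Y657* mouse MT_827 the second count was 12. Set against the fed state, refed wild-type livers had 5 members higher and 11 lower (27.5% of all genes), and refed WT/Y657* livers 2 higher and 13 lower (26.1%). The wild-type count was 9 higher and 11 lower with library size alone. In replicate comparisons, refed wild-type library WT_896, the deepest of all, stood apart from the others of its group. Its chi-square per degree of freedom, a ratio that grows with depth, was 100.6 to 147, beside 13.99 to 37.4 among the other 5. Without it, refeeding raised 3 and lowered 9 members in wild-type mice, and the count against the fed state was unchanged. Fasted WT/Y657* libraries MT_806 (58.3 to 134) and MT_923 (58.3 to 107) also stood apart, beside 17.97 to 52.1 among the rest of their group. The refed WT/Y657* libraries ranged from 30.4 to 138. From fed to refed, the median member was -0.08 in wild-type animals and -0.23 in WT/Y657* mice, beside 0.02 and 0.00 for all genes. Members above the fed level in both genotypes included Gstt2 and Mgst3, and those below it included Ugt2b37, Ugt2b38, Gstm6, Gstm7, Ugt2b1 and Sult1d1. Mean levels of Sult5a1 were also lower, at 2.43 in fed and 1.27 CPM per kilobase in refed wild-type livers. In WT/Y657* livers they were 3.64 and 1.58 CPM per kilobase. All these differences cannot be told apart from those between the mouse series.

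The enzymes need donor molecules, and genes of donor supply were read as lists. Over all 13945 tested genes, 1821 were called in fasted WT/Y657* mice, 925 of them lower, and 330 in fed ones, 161 of them lower. For UDP-glucuronic acid, 2 of 8 listed genes were lower in fasted WT/Y657* livers, Ugp2 (-0.38, adjusted p = 0.0396) and Pgm2 (-0.39, adjusted p = 7.9e-04). Slc35b4, on this list although known as a carrier of other UDP-sugars, was lower in the fed state (-0.40, adjusted p = 0.0395). For the sulfate donor PAPS, 3 of 10 were lower in fasted WT/Y657* mice, Papss2 (-0.52, adjusted p = 0.00417), which makes PAPS, Suox (-0.49) and the sulfate carrier Slc26a1 (-0.25), and Slc35b3 was higher (0.47). The same 3 lower genes also differed in their fasting response (Papss2 -0.65, Suox -0.65, Slc26a1 -0.40), beside 4.35% of all genes. For UDP-glucuronic acid, 1 of 8 genes was called for that difference, with a negative value. Of 13 tested genes of glutathione synthesis and recycling, Cbs was higher in fed (0.50, adjusted p = 0.0464) and the cystine carrier Slc7a11 in fasted WT/Y657* mice (0.96, adjusted p = 0.00854). In wild-type mice fasting raised 1 and lowered 4 of the 8 genes for UDP-glucuronic acid, raised 4 and lowered 4 of the 10 for PAPS, and raised 3 and lowered 2 of the 13 for glutathione, beside 32% of all genes called.

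Other steps around conjugation also held called genes in fasted WT/Y657* mice, where 13.1% of all genes were called. Of 24 other phase II enzymes, As3mt (0.68) and Nnmt (1.19) were higher and Acsm1 (-0.33), Acsm5 (-0.38) and Inmt (-0.89) lower. Of 9 exporters, Abcb1b (1.30) and Abcc5 (0.57) were higher and Abcc3 (-0.78, adjusted p = 0.00395), a basolateral carrier of glucuronides, lower, whereas Abcc4 was higher in fed mice (0.90). Of 8 deconjugating enzymes, Ggh was higher in fasted (0.35) and Arsg in fed WT/Y657* mice (0.70). Among 21 regulators, 8 were lower in fasted WT/Y657* mice, first by p Ppara (-0.55, adjusted p = 3.3e-04), Stat5b (-0.43) and Nr3c1 (-0.38), and Cux2 was higher (1.93). In fed mice Nfe2l2, which encodes NRF2, was higher (0.41) and Rxra lower (-0.31). Nfe2l2 also differed in its fasting response (-0.66, adjusted p = 6.6e-04), together with Stat5b, Foxa2, Keap1 and, in the other direction, Hnf4a, beside 4.35% of all genes. Between refed genotypes none of these lists held a called gene.

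Target genes of the receptors were read in the same way. In fasted WT/Y657* mice 1 of 8 NRF2 targets was higher (Slc7a11), 1 of 6 CAR and PXR targets lower (Aldh1a1, -0.84) and 1 of 6 AHR targets lower (Cyp1a2). In fed mice none of these 3 lists held a called gene. Of the sex-dependent lists in fasted WT/Y657* mice, Cux2 was higher and Cyp2b9 lower among 6 tested female-predominant genes, and C6 (0.71) and Mup20 (1.29) were higher among 9 male-predominant genes. Cyp2b9 stood at 1.61, 13.7 and 75.0 CPM in fasted wild-type and at 0, 0.09 and 1.34 CPM in fasted WT/Y657* livers.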

How the data were processed

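Liver RNA from 36 mice was measured, 1 library per mouse. Per the labels, total RNA was prepared with a stranded kit and read as single 50-base reads, and Cuffdiff, SAMtools and featureCounts are named without versions. The deposited table holds an estimated count of reads per gene and mouse; 3.33% of its nonzero values were not whole, and all were rounded to whole numbers for the tests. A second table of values fitted by the authors was not used here. The labels name the genome build mm9, but 99.8% of the loci found in the annotation overlap those of GRCm38 (GENCODE M21), so coordinates are those of GRCm38. Whether counting used the strand is not stated.

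Genes were filtered with filterByExpr over the 6 groups in edgeR 4.0.16 (R 4.3.3), which left 13945 genes, scaled by TMM (factors 0.914 to 1.09) and fitted with robust quasi-likelihood (common BCV 0.181). Tests were two-sided, with Benjamini-Hochberg correction over all tested genes and a threshold of 0.05. Comparisons were genotype in each state, fasting, refeeding and refed against fed in each genotype, and the genotype difference in fasting and refeeding responses. The standard error was derived from the log2 fold change and F. CPM are counts over the scaled library size, and levels per length divide by the union of exons. Tables and figures were made with Python 3.11.15, pandas 2.3.3, Biopython 1.88 and matplotlib 3.10.9.

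Named genes are, first, the members called between genotypes, up to 12 per comparison. For each fasting and refeeding response they are the called members with the largest rise or fall, up to 3 per family and direction. The 3 members of each family with the highest level per length were named as well. Others are marked as chosen after their values were seen. The members and lists were chosen with earlier results of these data known. In all 13 pathway and 12 marker lists were read, with 209 of 214 symbols found; the results of some listed genes, and of 1 list that rests on them, are not reported. Alternatives were edgeR's likelihood ratio test, DESeq2 1.42.0, limma-voom (limma 3.58.1), DESeq2 size factors, library size alone, 2 other count filters, the mouse number series as covariate, only the groups compared, each mouse left out, and, chosen after seeing the data, the 9 Ugt1a genes summed.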

Additional observations from a re-analysis of the deposited data

Results flagged for a closer look

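In 204 groups of 6 mice, the lowest and highest value were compared with their neighbour by Dixon's ratio of gap to range. This found 11 values, where chance gives about 1 in 20 groups. Mouse MT_827 (fasted WT/Y657*) was high for Gstm3 at 96.8 CPM and for Mgst3 at 19.998 CPM. Mouse WT_807 (fasted wild-type) was high for Ugt3a2 at 497 CPM and for Ugt2b37 at 2.74 CPM, and mouse WT_860 (fed wild-type) was high for Ugt2b37 at 14.5 CPM. Among fed WT/Y657* mice, MT_866 was low for Ugt2b35 at 141 CPM, MT_857 high for Ugt1a2 at 3.33 CPM and MT_859 high for Mgst2 at 0.49 CPM. After refeeding, WT/Y657* mouse MT_898 was low for Gstt2 at 47.0 CPM, WT/Y657* mouse MT_810 high for Gstm7 at 28.3 CPM and wild-type mouse WT_828 high for Mgst1 at 3666 CPM. In addition, the fasting response of Sult1c2 differed between genotypes by -1.33. The reasons were not tested.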

How the results depend on the processing

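Across all 11 comparisons 92 calls were made, and 0 reversed direction in any setting; 19 were lost in some other setting and 22 when some single mouse was left out. For genotype in fed mice the count of 1 became 3 with the likelihood ratio test, 3 with DESeq2, 5 with library size alone, where the median of all genes was 0.11, and 0 with only the groups compared. In fasted mice the count of 6, all lower, became 7 with the likelihood ratio test (2 higher), 9 with DESeq2 (2 higher), 9 with limma-voom (2 higher), 8 with at least 10 counts in every library (1 higher), 7 with the series covariate (1 higher), 5 without a filter, 4 with library size alone, 4 with the Ugt1a genes summed and 3 with only the groups compared. The 1 call for the fasting difference became 2 with the likelihood ratio test, 3 with DESeq2, 2 with limma-voom, 2 with library size alone and 2 with at least 10 counts in every library. In refed mice, and for the refeeding difference, every leave-one-out fit gave 0. Leaving out each mouse gave 0 to 6 calls in fed mice (0 without WT_847, WT_849, WT_856, MT_866, MT_868 or MT_869, 2 without MT_827 or MT_859, 5 without MT_857, 6 without MT_858), 4 to 10 in fasted mice (10 without MT_826) and 1 to 5 for the fasting difference (5 without WT_807, 4 without MT_857, 3 without MT_858, 2 without MT_859, WT_860, WT_920 or MT_921). For fasting it gave 16 to 19 in wild-type and 13 to 18 in WT/Y657* mice, for refeeding 9 to 14 and 5 to 12 (12 without MT_827), and for refed against fed 14 to 18 and 15 to 19. The fed genotype value of Sult1c2 ranged from 0.71 to 0.96, its fasting difference from -1.44 to -1.19 and the fasted genotype value of Ugt1a1 from -0.83 to -0.60. Calls lost without 1 mouse and not given above were, in WT/Y657* fasting, Gsta4, chosen after its values were seen (-0.43 without MT_868), Gsto1 (0.20 without MT_858) and Gstt1 (-0.34 without MT_806); in wild-type fasting, Ugt2b1 (-0.46 without WT_848); in wild-type refeeding, Gstt1 (lost in 28 of 36 fits; -0.30 without WT_825), Gsto1 (-0.17 without WT_828), Ugt2b1 (-0.42 without WT_918) and Ugt3a1 (-0.48 without WT_828); and in refed against fed mice, Gstt1 (-0.40 without MT_898), Gstm1 (-0.43 without WT_860), Ugt2b34 (0.28 without WT_900) and Ugt3a1 (0.43 without WT_849). For each of these calls 1 fit is given, although some were lost in several, for instance Gsta4 in 7 of 36. No paired analysis was possible because no mouse number is shared between groups. Where a result moved, the cause was not tested.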

Other observations

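Beside the pericentral list, the other marker lists held few genes called between genotypes. Of the 8 pericentral markers, Slc1a2 was lower in fed WT/Y657* livers (-0.84). The periportal marker Gls2 was higher in fed WT/Y657* livers (0.64), and the fasted results of the periportal list are not reported in full. Dcn, of 6 stellate cell markers, was higher in fed (0.43) and fasted (0.42) WT/Y657* livers, Lyve1 of 6 endothelial markers in fasted (1.32) and Nkg7 of 4 tested lymphocyte markers in fed livers (2.78). The 8 hepatocyte markers, the 5 tested Kupffer cell, 5 cholangiocyte and 5 red cell markers, and the 1 tested marker each of exocrine pancreas, intestine and adipocyte held 0 called genes in every state. Marker sums still varied between mice. The Kupffer cell sum was 190, 222 and 273 CPM in fed wild-type and 177, 395 and 630 CPM in fed WT/Y657* livers, highest in MT_868, and the lymphocyte sum 10.1, 13.3 and 17.8 against 12.6, 21.3 and 43.9 CPM, highest in MT_866. In fasted WT/Y657* livers the adipocyte sum was 12.2, 34.1 and 122.8 CPM, highest in MT_827, beside 20.4, 24.4 and 26.3 CPM in fasted wild-type livers. These sums were not tested. The part of these cells in the levels of the members was not tested.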
